A study of Mus musculus with 14 samples.

Results

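The solute carriers are the largest group of membrane transporters. The genes described here are those of them that passed a limit of signal in primitive erythroid precursors captured from the mouse yolk sac, and they are called expressed below. The captures also held endoderm transcripts, so the signal does not show in which cells a gene was expressed. A gene was included when its platform symbol has the form Slc, a number, the letter a and a number, and when its brightest probe set averaged at least 7 on the log2 scale over the wild-type arrays. The Slc25 family of mitochondrial carriers was left out, as were Slc4a1, Slc2a1, Slc14a1, Slc11a2 and Slc40a1, and the form of symbol leaves out 16 measured genes such as Slc35b1. The rule kept 81 of the 200 solute carrier genes measured outside these exclusions, out of 12393 genes on the array. These 81 genes belong to 36 families, of which 20 are represented by 1 gene. Because the wild-type level chose the genes, that level is given below as a description and is not tested.

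Solute carriers move amino acids, sugars, metals, ions, vitamins and lipids across the plasma membrane and the membranes of organelles, usually by exchange or along a gradient of sodium or protons. Erythroid precursors draw on them heavily, since haemoglobin synthesis needs amino acids, iron and glycine for haem, and rapid division needs glucose, phosphate and nucleotide sugars. KLF1 is the erythroid Krüppel-like transcription factor that binds CACCC-type elements of many red cell genes, and KLF2 is a related factor expressed in endothelium and in primitive erythroid cells.

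The study compared 3 genotypes at embryonic day 9.5, with 1 Affymetrix array per sample. There were 8 wild-type samples, 3 samples that lacked KLF1 in all cells (KLF1-/-) and 3 labelled as lacking both factors (KLF1-/- KLF2-/-), all given the strain label FVB/N. Erythroid cells were cut from frozen yolk sac sections by laser capture, and each replicate pooled 2 to 4 yolk sacs from 2 litters. From 10 to 20 ng of RNA, 2 rounds of amplification from the poly(A) tail were made, so signal comes mainly from the 3′ ends of transcripts. The mutations were constitutive, so the surrounding endoderm, endothelium and mesenchyme of the mutant yolk sacs carried them too. The sources used here do not give whether any litter contributed to several replicates, and p-values therefore measure the spread between these samples.

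In the sample numbering, 4 wild-type arrays share the run from 1 to 8 with the KLF1-/- arrays, and the other 4 share the run from 9 to 15 with the KLF1-/- KLF2-/- arrays. Nothing in the labels calls a run a batch, so the runs were pooled. The 2 mutant genotypes share no run, so a pooled difference between them also holds any difference between the runs. Against the wild-type arrays of their own run alone, 16 of the 81 genes had the other sign in KLF1-/- (21.1% of all genes) and 21 in KLF1-/- KLF2-/- (23.9%), and these values are given beside some of the differences below. Array medians ran from 6.55 to 6.66 on the log2 scale. Over the 8 wild-type arrays Klf1 averaged 10.67 ± 0.63 (SD), over the 3 KLF1-/- arrays 9.45 ± 0.39 and over the 3 KLF1-/- KLF2-/- arrays 9.15 ± 0.53 (differences within the runs -0.78 and -1.96), whereas Klf2 averaged 6.25 ± 0.25, 6.22 ± 0.28 and 6.69 ± 0.32. Klf2 was thus not lower in the arrays labelled KLF1-/- KLF2-/-, and the sources used here do not give where its probe set lies relative to the deleted part. Of the erythroid markers, 9 of 10 were measured and all 9 averaged at least 7 in wild type. Visceral endoderm markers were also high, with array means of 10.17 to 11.95 in wild type, 10.90 to 11.53 in KLF1-/- and 10.81 to 10.99 in KLF1-/- KLF2-/-. Endoderm transcripts were thus present in every genotype. The mean of the 9 measured of 10 megakaryocyte and platelet markers was 6.94 to 7.34 in wild type, 7.36 to 7.52 in KLF1-/- and 7.54 to 7.87 in KLF1-/- KLF2-/-, and that of the 11 macrophage markers was 6.70 to 7.16, 6.82 to 6.91 and 7.25 to 7.30. The array means of the mesenchyme and endothelium markers overlapped between genotypes. In KLF1-/- KLF2-/- all 11 mesenchyme markers had a positive difference (median 0.36), as did 9 of the 11 macrophage markers (median 0.37) and 8 of the 9 megakaryocyte markers (median 0.40), yet 0 markers of any list were called by limma in either mutant. The part of other cells in the differences of the solute carriers was not tested, and a bulk value cannot tell more cells of a type from more RNA per cell.

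The promoters of 3 genes are shown for reference to the results, as the RefSeq windows of 250 bases before to 50 bases after the transcription start in GRCm38.p6. Slc38a5 and Slc20a1 had the largest positive and the largest negative mean difference in KLF1-/-, and Slc2a2 is the gene that followed the endoderm markers most closely. Capitals mark CCNCNCCC, the core of the element that KLF1 binds, and CACGTG, the E-box bound by MYC, on either strand and with overlapping matches joined.
Slc38a5, chrX:8271131-8271430, plus strand: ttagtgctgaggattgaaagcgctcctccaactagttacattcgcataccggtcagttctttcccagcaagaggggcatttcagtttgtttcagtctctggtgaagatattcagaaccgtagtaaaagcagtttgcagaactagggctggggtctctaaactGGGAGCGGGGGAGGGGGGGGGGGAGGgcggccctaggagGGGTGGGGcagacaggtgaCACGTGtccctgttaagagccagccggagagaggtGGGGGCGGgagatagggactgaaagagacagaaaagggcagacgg
Slc20a1, chr2:129198523-129198822, plus strand: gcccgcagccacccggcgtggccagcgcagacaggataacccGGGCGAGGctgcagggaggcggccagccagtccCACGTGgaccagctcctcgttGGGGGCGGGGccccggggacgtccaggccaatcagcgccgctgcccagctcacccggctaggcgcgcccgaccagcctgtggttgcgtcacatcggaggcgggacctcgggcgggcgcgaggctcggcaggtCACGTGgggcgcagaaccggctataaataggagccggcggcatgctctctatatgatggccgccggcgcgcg
Slc2a2, chr3:28697653-28697952, plus strand: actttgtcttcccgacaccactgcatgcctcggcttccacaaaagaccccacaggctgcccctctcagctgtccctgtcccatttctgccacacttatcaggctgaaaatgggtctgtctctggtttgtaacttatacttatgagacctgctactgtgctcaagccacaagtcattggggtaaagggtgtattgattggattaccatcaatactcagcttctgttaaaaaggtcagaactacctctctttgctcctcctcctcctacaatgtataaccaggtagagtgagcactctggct

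The Slc38a5 window held 10 matches to CCNCNCCC and 1 to CACGTG, and the printed Slc20a1 window held 3 and 2, while a second Slc20a1 window at chr2:129206846-129207145 held 0 of either. The Slc2a2 window held neither, which says only that these letters are not in this window. RefSeq promoter windows were found for 56 of the 81 genes, 76 windows in all. CCNCNCCC occurred in 77.6% of these windows against 49.5% of the 32851 windows of all genes, and CACGTG in 15.8% against 7.15%. The windows of the solute carriers also held more G and C, with a median of 60.5% against 52.7%, and the part of base composition in the motif shares was not tested.

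Expression above the limit was less frequent among solute carriers than across the array: 40.5% of the measured solute carriers averaged at least 7 in wild type, against 49.8% of all genes. This is a description, and the difference was not tested. The median of the 81 wild-type means was 7.88, with 33 genes at 8 or more, 12 at 9 or more and 6 at 10 or more. Probe sets differ in how they respond to their transcript, so levels are not set against each other between genes. Just inside the limit were Slc33a1, which carries acetyl-CoA into the endoplasmic reticulum, at 7.02, Slc35a3, a carrier of UDP-N-acetylglucosamine, at 7.03, and the taurine transporter Slc6a6 at 7.11. Just outside lay the glutamate transporter Slc1a3 at 6.98, Slc46a3 at 6.95 and the copper importer Slc31a1 at 6.93.

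**Figure D1:**
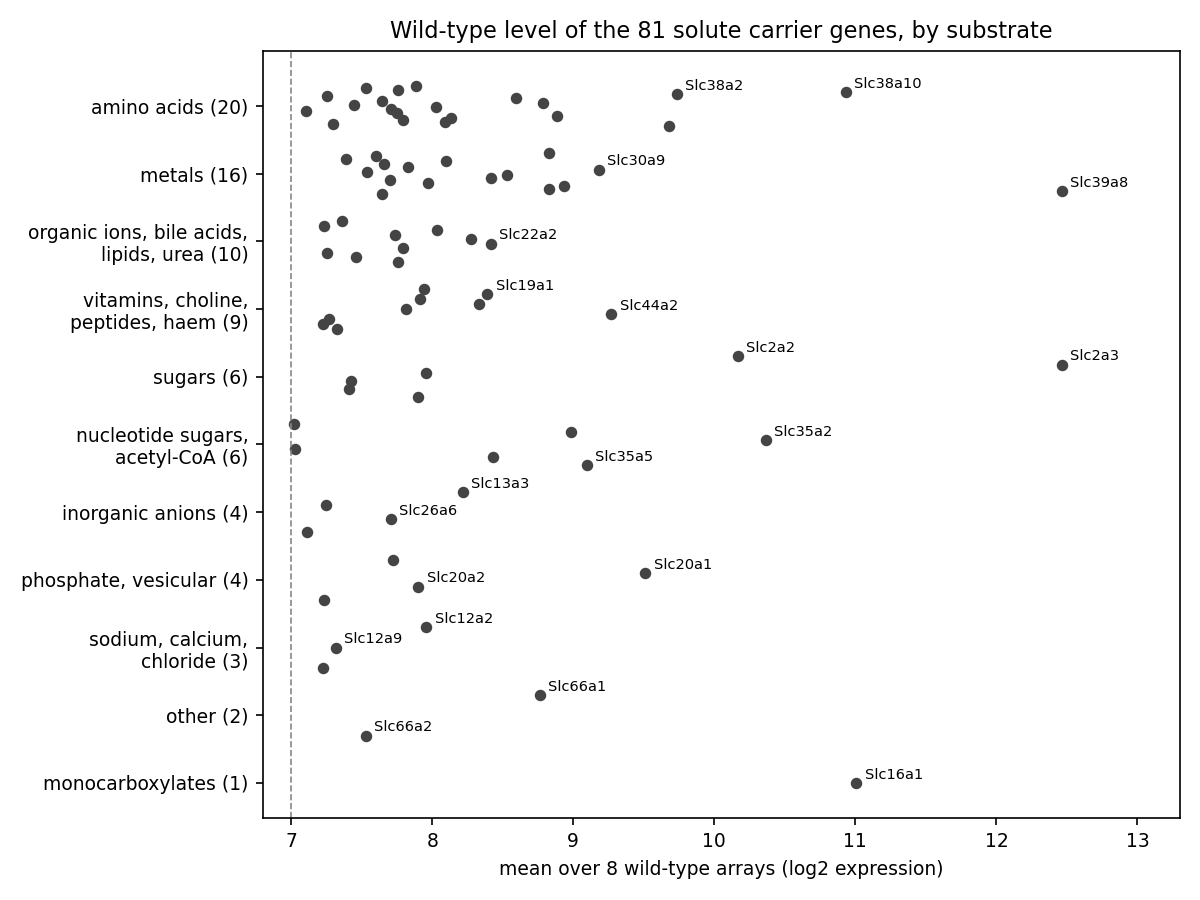
Mean log2 expression of each of the 81 genes over the 8 wild-type arrays, grouped by the substrate of its family, with the number of genes in parentheses and the dashed line at the limit of 7. Most genes lie between 7 and 9, and 6 genes reach 10 or more.

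The 6 genes at 10 or more in wild type came from 5 substrate groups. Slc2a3, a glucose transporter with high affinity, averaged 12.47 ± 0.36 (SD, n = 8), and Slc39a8, a plasma membrane importer of zinc and manganese, averaged 12.46 ± 0.49. The lactate and pyruvate carrier Slc16a1 averaged 11.01 ± 0.69. Slc38a10, a little-studied member of the neutral amino acid family, was at 10.93 ± 0.20, Slc35a2, which brings UDP-galactose into the Golgi, at 10.36 ± 0.24, and the glucose transporter Slc2a2 of liver and gut at 10.17 ± 0.88. Slc2a2 varied most among these, and its 8 wild-type values spanned 8.98 to 11.33. These levels are those of the brightest probe set of each gene. In wild type the dimmer probe sets of Slc38a10 averaged 5.85 to 6.66, that of Slc39a8 5.32 and those of Slc35a2 6.03 to 7.93. For Slc2a3 the next probe set averaged 12.43 and the others 5.35 and 6.08.

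Against this wild-type pattern, 0 of the 81 genes changed in KLF1-/- at an adjusted p under 0.05 in limma, a linear model over all 14 arrays with adjustment over all 12393 genes, while 0.0403% of all genes did. Before adjustment, 3 genes had p under 0.05, all with a positive difference (Slc38a5, Slc7a6 and Slc26a2), against 2.03% of all genes in either direction and 1.27% with a positive difference. In KLF1-/- KLF2-/- 0 of 81 were called, against 0.0646% of all genes, and 3 had an unadjusted p under 0.05 (Slc39a1 and Slc50a1 higher, Slc44a2 lower), against 2.32% of all genes, 1.61% higher and 0.718% lower. Between the mutant genotypes 0 were called, against 0.00807%, and 2 had an unadjusted p under 0.05 (Slc7a6 and Slc44a2, both lower in KLF1-/- KLF2-/-), against 0.597% in either direction and 0.21% lower. The mutants lie in different number runs, so this pooled comparison cannot tell genotype from run. For the mean of both mutants against wild type the counts were 0 called, against 0.129%, and 3 before adjustment (Slc38a5, Slc39a1 and Slc44a2), against 3.01%. The smallest adjusted p among the 81 genes was 0.9998 in KLF1-/-. Klf1 itself, with differences of -1.22 and -1.52, was not called in either mutant (adjusted p = 0.9998 and 0.317 in limma). A count of 0 called thus does not show that the genes were unchanged. Both mutant genotypes were compared with the same wild-type arrays, so their differences are not independent.

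The differences were small in the centre of the list. The median log2 difference of the 81 genes was 0.01 in KLF1-/- and -0.0013 in KLF1-/- KLF2-/-, beside 0.0070 and 0.0067 over all genes. Over the 6167 genes of the array that pass the same wild-type limit the medians were 0.05 and 0.03. Positive differences numbered 45 in KLF1-/-, or 55.6% against a background of 52.1%, and 39 in KLF1-/- KLF2-/-, or 48.1% against 52.1%. An absolute difference of 0.5 or more was reached by 2 genes in each, against 1.6% and 2.19% of all genes; in both it was Slc38a5 and Slc3a2. The single differences ranged from -0.44 to 0.81 in KLF1-/- and from -0.49 to 0.74 in KLF1-/- KLF2-/-.

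How large a change these arrays leave room for is given by the 95% intervals. Their median half-width was 0.42 in each mutant against wild type and 0.50 between the mutants. The whole interval lay between -1 and 1, the range of a 2-fold change, for 73 of the 81 genes in KLF1-/- (94.6% of all genes) and for 72 in KLF1-/- KLF2-/- (94.3%). It lay between -0.5 and 0.5 for 31 genes in KLF1-/- (52.1% of all genes) and for 33 in KLF1-/- KLF2-/- (53.8%). For 73 and 72 of these transporters a change beyond 2-fold in either direction thus lay outside the interval.

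**Figure D2:**
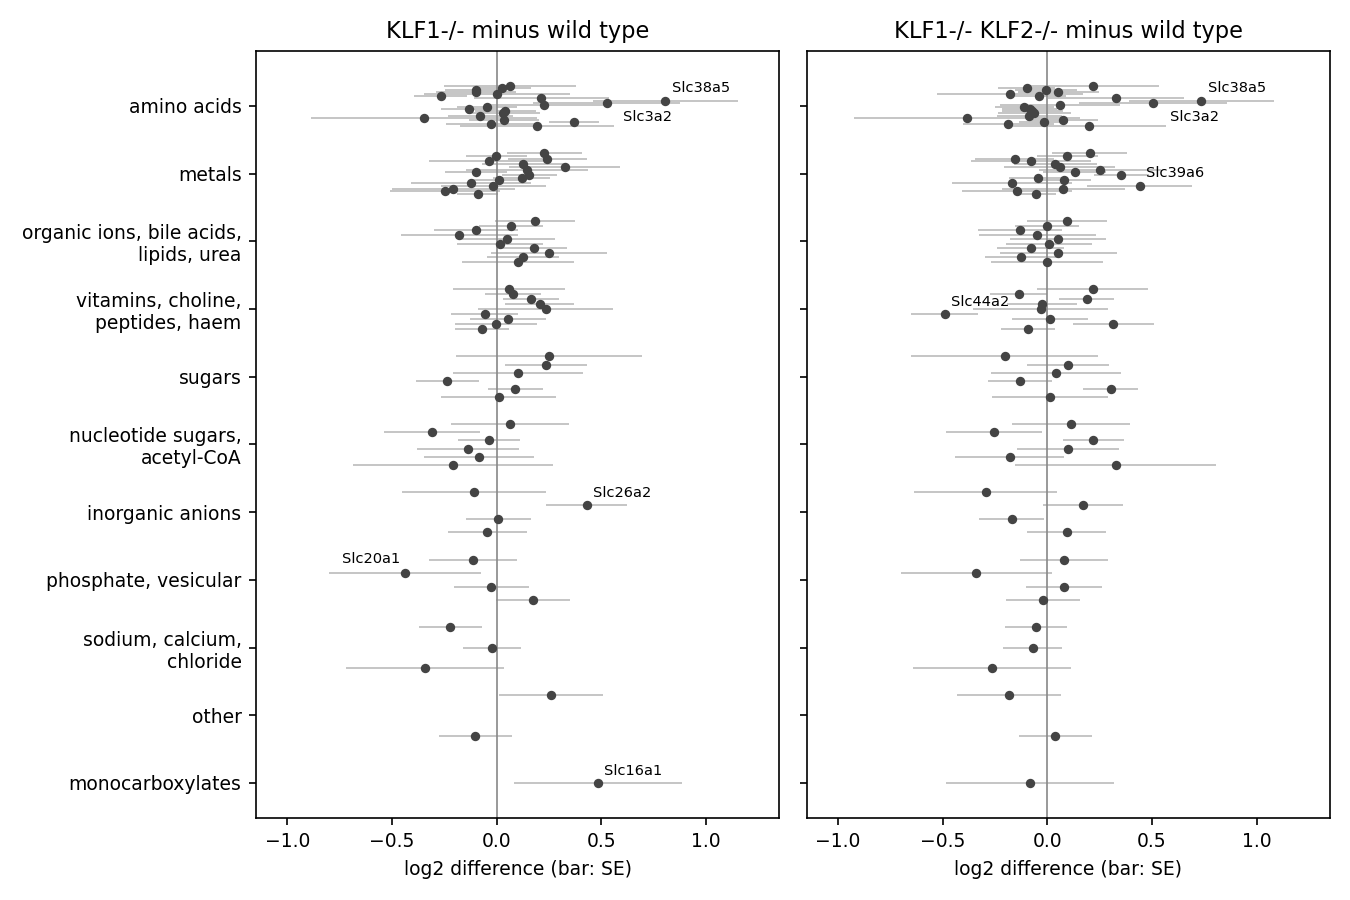
Log2 difference of each gene from wild type (point) with its standard error (bar), by substrate group, for KLF1-/- on the left and KLF1-/- KLF2-/- on the right. Slc38a5 has the largest difference in both panels, 0.81 and 0.74, and most points lie within 0.5 of zero.

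Amino acid carriers were the largest substrate group, with 20 of 42 measured genes expressed, of which 12 had a positive difference in KLF1-/- (median 0.03) and 8 in KLF1-/- KLF2-/- (median -0.03). Slc38a5 moves glutamine, asparagine, histidine and serine with sodium. It ranged from 6.75 to 8.74 with a median of 7.65 on the wild-type arrays, read 8.52, 8.59 and 8.25 in KLF1-/-, and read 8.12, 9.21 and 7.82 in KLF1-/- KLF2-/-. Wild-type sample 9 lay above all KLF1-/- arrays and the other 7 lay below them, while in KLF1-/- KLF2-/- sample 14 alone was above every wild-type array. The log2 difference was 0.81 (95% interval 0.07 to 1.55, unadjusted p = 0.035 in limma) in KLF1-/- and 0.74 (-0.0026 to 1.48, unadjusted p = 0.051) in KLF1-/- KLF2-/-, neither of which passed adjustment. Without sample 14 the KLF1-/- KLF2-/- difference was 0.32. Against the wild-type arrays of the same number run the differences were 0.94 and 0.60, and all 3 KLF1-/- arrays lay above those 4. Such a lack of overlap within the run was found for 3 of the 81 genes in KLF1-/- (Slc38a5, Slc7a6 and Slc43a3, against 3.13% of all genes) and for 3 in KLF1-/- KLF2-/- (Slc39a1, Slc50a1 and Slc44a2, against 4.42%).

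Slc3a2 encodes the heavy chain that carries the exchangers Slc7a5, Slc7a6 and Slc7a7 to the plasma membrane. Its wild-type values ran from 7.59 to 9.49 with a median of 8.79, beside 9.34, 9.84 and 8.74 in KLF1-/- and 9.40, 9.69 and 8.77 in KLF1-/- KLF2-/-. In each mutant 1 array exceeded all wild-type arrays and 1 lay just below the wild-type median. The differences were 0.53 (-0.23 to 1.28) and 0.51 (-0.25 to 1.26), within the spread of the samples. Across the 14 arrays Slc3a2 went with the spread of each array's values, measured as their interquartile range (r = 0.738, rho = 0.758, adjusted permutation p = 0.0181 and 0.0219; r = 0.629 without the 2 farthest arrays; 0.726 and 0.80 within the number runs), whose part in the difference was not tested.

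Of the exchangers that pair with it, Slc7a6, which exports arginine in return for neutral amino acids and sodium, stood apart in KLF1-/-. It read between 7.79 and 8.31 in wild type with a median of 8.08, 8.47, 8.52 and 8.39 in KLF1-/-, and 8.26, 8.07 and 7.89 in KLF1-/- KLF2-/-. All KLF1-/- arrays lay above all wild-type arrays, and the KLF1-/- KLF2-/- arrays lay among the wild type. Slc7a6 was the 1 gene of 81 whose KLF1-/- values did not overlap the wild type, against 0.573% of all genes. Its differences were 0.37 (0.12 to 0.62, unadjusted p = 0.0069) and -0.02 (-0.27 to 0.23), and the KLF1-/- KLF2-/- mean was 0.39 below the KLF1-/- mean. A second, dimmer probe set of the gene differed by 0.10 in KLF1-/-. Slc7a5, the large neutral amino acid exchanger, was at 7.79 ± 0.29 in wild type with differences of 0.04 and 0.07, and Slc7a7 had -0.03 and -0.19.

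Other amino acid carriers showed no common direction. Slc38a2, the sodium-coupled carrier induced by amino acid shortage, averaged 9.74 ± 0.58 in wild type, with differences of 0.0016 and -0.18, the latter between -0.46 and 0.16 with single arrays left out. Slc6a9, the glycine transporter needed for haem synthesis, averaged 8.88 ± 0.19, with -0.08 and -0.09. Slc38a4 had 0.21, which without sample 6 was -0.24, and 0.33. Slc38a3 had -0.27 and -0.04, and the renal cystine transporter Slc7a9, at 9.68 ± 0.74 in wild type, had 0.19 and 0.20. Slc7a4, a gene of the cationic amino acid family without known transport activity, had -0.35 and -0.39 with the highest within-genotype SD of all 81 genes, 0.90. Its direction rested on single arrays: without sample 6 the KLF1-/- difference was 0.29, and without sample 14 the KLF1-/- KLF2-/- difference was 0.21. Slc43a3, a nucleobase carrier placed here by its family, had 0.22 and 0.06, and its KLF1-/- arrays lay above the wild-type arrays of their number run.

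**Figure D3:**
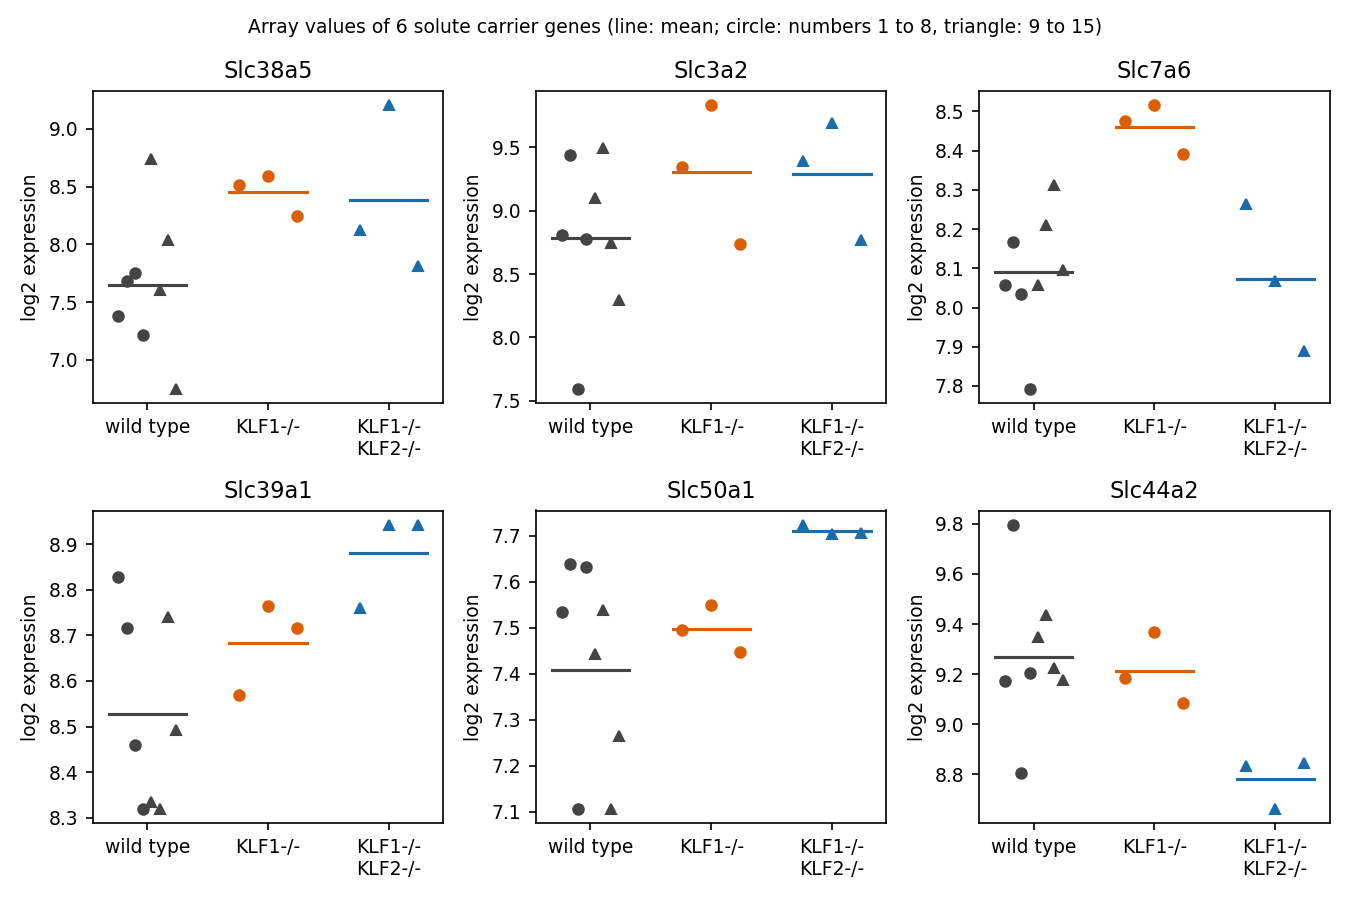
Log2 expression on each array for 6 genes, with wild type in grey, KLF1-/- in orange and KLF1-/- KLF2-/- in blue; circles are sample numbers 1 to 8, triangles 9 to 15 and lines the group means. Slc7a6 in KLF1-/- and Slc50a1 in KLF1-/- KLF2-/- do not overlap the wild type, and the other 4 genes do.

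Metal carriers were the second group, with 16 of 24 measured genes expressed, 7 each from the Slc39 importers of zinc into the cytosol and the Slc30 exporters out of it. In KLF1-/- 8 of the 16 had a positive difference and in KLF1-/- KLF2-/- 10 did. Slc39a1, a zinc importer of the plasma membrane, read 8.32 to 8.83 in wild type with a median of 8.48, 8.57, 8.76 and 8.72 in KLF1-/-, and 8.76, 8.94 and 8.94 in KLF1-/- KLF2-/-. Its KLF1-/- KLF2-/- arrays lay above the 4 wild-type arrays of their run, and 1 of them lay below wild-type sample 1. The differences were 0.16 (-0.12 to 0.43) and 0.35 (0.08 to 0.63, unadjusted p = 0.016). Slc39a6, another zinc importer, had -0.02 (-0.34 to 0.35 with single arrays left out) and 0.44 on its brightest probe set and -0.07 and 0.10 on the other, and read 9.43, 9.74 and 8.96 in KLF1-/- KLF2-/- against 8.55 to 9.26 in wild type.

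Slc39a8 read 11.74 to 13.14 in wild type, 11.96, 12.55 and 12.13 in KLF1-/- and 12.35, 12.52 and 12.08 in KLF1-/- KLF2-/-. All 6 mutant arrays lay inside the wild-type range, with differences of -0.25 (-0.81 to 0.31) and -0.14 (-0.70 to 0.42). Of the Slc30 genes, Slc30a1, the zinc exporter of the plasma membrane, averaged 8.83 ± 0.27 in wild type with 0.23 and 0.20. Slc30a9 had 0.15 and 0.25, and Slc30a7, which loads zinc into the Golgi, had 0.32 and 0.06. Of the Slc30 genes 5 of 7 had a positive difference in each mutant (medians 0.15 and 0.06), and of the Slc39 genes 3 in KLF1-/- and 4 in KLF1-/- KLF2-/-. For comparison, outside the rule, the endosomal iron importer Slc11a2 had -0.02 and 0.30, within the runs 0.26 and 0.01, and the iron exporter Slc40a1 had 0.02 and 0.12, within the runs -0.26 and 0.40.

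Sugar carriers numbered 6 of 23 measured. Slc2a3 had differences of 0.24 (-0.19 to 0.66) and 0.10 (-0.32 to 0.52), and Slc2a1, the main glucose transporter outside the rule, had 0.07 and -0.25, with the other sign within the runs (-0.23 and 0.06). Slc2a2 read 10.27, 10.77 and 10.20 in KLF1-/- and 10.37, 10.10 and 9.42 in KLF1-/- KLF2-/-, all inside its wide wild-type range, with differences of 0.25 (-0.70 to 1.20) and -0.20 (-1.16 to 0.75), which had the other sign within the runs (-0.31 and 0.36). Slc50a1, a sugar carrier of the Golgi, read 7.11 to 7.64 in wild type with a median of 7.49, 7.49, 7.55 and 7.45 in KLF1-/-, and 7.72, 7.70 and 7.71 in KLF1-/- KLF2-/-. It was the 1 gene of 81 whose KLF1-/- KLF2-/- arrays all lay outside the wild-type range, against 0.75% of all genes, and on these arrays the macrophage and megakaryocyte marker means also lay outside it. The KLF1-/- arrays lay within the wild-type range. The differences were 0.09 (-0.19 to 0.37) and 0.30 (0.02 to 0.58, unadjusted p = 0.035), and the 6 mutant arrays together overlapped the wild type. For 0 of the 81 genes did all 6 mutant arrays lie on 1 side of all wild-type arrays, against 0.21% of all genes.

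The vitamin, choline, peptide and haem carriers, 9 of 20 measured, held the largest negative difference in KLF1-/- KLF2-/-. Slc44a2, a choline transporter-like protein, read 8.81 to 9.80 in wild type with a median of 9.21, 9.19, 9.37 and 9.08 in KLF1-/-, and 8.83, 8.66 and 8.84 in KLF1-/- KLF2-/-. The last 3 lay below every wild-type array of their own run, and wild-type sample 3 fell among them. The difference was -0.49 (-0.83 to -0.15, unadjusted p = 0.0080) in KLF1-/- KLF2-/- and -0.06 (-0.40 to 0.28) in KLF1-/-, and the KLF1-/- KLF2-/- mean was 0.43 below the KLF1-/- mean. The other probe sets of the gene, both dimmer, differed by -0.08 and 0.15 in KLF1-/- KLF2-/-, so the direction was not shared by all of them. Slc48a1, which moves haem out of lysosomes, had -0.0032 and 0.32, with -0.0059 on its second probe set in KLF1-/- KLF2-/-. The folate carrier Slc19a1 had 0.08 and -0.14, and the thiamine carrier Slc19a2 had 0.16 and 0.19.

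Carriers of nucleosides, nucleotide sugars and acetyl-CoA were expressed as 6 genes of 11. Of the 6, 1 was the acetyl-CoA carrier Slc33a1. The other 5 were all the Slc35 genes measured that the form of symbol admits, a family of nucleotide sugar carriers that supply glycosylation in the Golgi. On the brightest probe sets, 0 of the 5 Slc35 genes had a positive difference in KLF1-/- (median -0.14), and 3 did in KLF1-/- KLF2-/- (median 0.10). The sialic acid nucleotide carrier Slc35a1 read 8.30, 9.15 and 8.57 in KLF1-/- and 8.92, 8.76 and 8.50 in KLF1-/- KLF2-/-, against 8.48 to 9.75 in wild type. Its differences were -0.31 (-0.80 to 0.18) and -0.25 (-0.75 to 0.24). Slc35a2 had -0.04 and 0.22. Slc35a5 had -0.21 and 0.33, but its KLF1-/- arrays read 9.94, 7.33 and 9.39. Without sample 6 its KLF1-/- difference was 0.57, and the mean of KLF1-/- KLF2-/- was 0.25 below that of KLF1-/- where it had been 0.53 above. The dimmer probe sets of Slc35a5 differed by -0.0078 to 0.14 in KLF1-/- and by -0.08 to 0.02 in KLF1-/- KLF2-/-. The sign was thus not shared by all of them.

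Phosphate, anion, cation and monocarboxylate carriers completed the set. Slc20a1, the main importer of phosphate, read 8.87 to 10.32 in wild type, 8.78, 9.78 and 8.65 in KLF1-/- and 9.18, 9.95 and 8.38 in KLF1-/- KLF2-/-. Its differences of -0.44 (-1.21 to 0.34) and -0.34 (-1.11 to 0.44) were within the spread, and without sample 15 the latter was 0.06. Slc20a2, the second phosphate importer, had -0.02 and 0.08. The sulphate carrier Slc26a2 read 7.46, 8.09 and 7.48 in KLF1-/- against 6.65 to 7.66 in wild type, with differences of 0.43 (0.02 to 0.84, unadjusted p = 0.042) and 0.17, and 0.04 in KLF1-/- on its second probe set. Slc13a3, a carrier of dicarboxylates, had -0.11 and -0.29, and within the runs -0.60 and 0.20.

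On their brightest probe sets, all 3 sodium, calcium and chloride carriers had negative differences in both mutants. Slc12a2, which brings sodium, potassium and chloride into the cell, had -0.22 (-0.54 to 0.10) and -0.05, and 0.05 within the run in KLF1-/- KLF2-/-. Of its dimmer probe sets 1 differed by 0.36 and 0.25 and the other by -0.24 and -0.23, so the sign was not shared by all of them. Slc12a9 had -0.02 and -0.07, and the sodium-calcium exchanger Slc8a1 had -0.34 and -0.27, which without sample 6 was 0.10 in KLF1-/- and without sample 14 was 0.02 in KLF1-/- KLF2-/-. Slc16a1 read 11.02, 12.32 and 11.14 in KLF1-/- and 11.21, 11.20 and 10.36 in KLF1-/- KLF2-/-, against 9.77 to 12.14 in wild type. Its differences were 0.48 (-0.37 to 1.34) and -0.08, and within the number runs they were 0.06 and 0.34. With single arrays left out the KLF1-/- difference of Slc16a1 ran from 0.07 to 0.72. Across the 14 arrays Slc16a1 had r = 0.723 with the interquartile range of the array (rho = 0.574). With the mean of the visceral endoderm markers it had r = 0.739 (rho = 0.591). Without the 2 farthest arrays r was 0.436 and 0.478. The part of either in the difference was not tested. The 10 organic ion, bile acid, lipid and urea carriers ranged from -0.18 to 0.25 in KLF1-/- and from -0.13 to 0.09 in KLF1-/- KLF2-/-. Slc22a2, a carrier of organic cations, was at 8.42 ± 0.34 in wild type with 0.01 in each mutant, and Slc22a26 had 0.25 and 0.05.

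Taken by family, the 7 families with at least 5 expressed genes overlapped between genotypes on every mean. The mean of the 7 Slc39 genes per array was 8.74 to 9.15 in wild type, 8.79 to 9.02 in KLF1-/- and 8.99 to 9.11 in KLF1-/- KLF2-/-. For the 6 Slc38 genes, which are all that were measured, it was 8.39 to 8.89, 8.52 to 8.91 and 8.70 to 8.99. The 5 Slc35 genes gave 8.59 to 9.0, 8.44 to 8.76 and 8.74 to 8.88. All 5 Slc6 genes had a negative difference in KLF1-/- KLF2-/-, between -0.11 and -0.06, and their array means were 7.70 to 8.01 there against 7.72 to 8.04 in wild type. Over all 81 genes the array mean was 8.13 to 8.31 in wild type, 8.22 to 8.26 in KLF1-/- and 8.21 to 8.22 in KLF1-/- KLF2-/-.

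**Figure D4:**
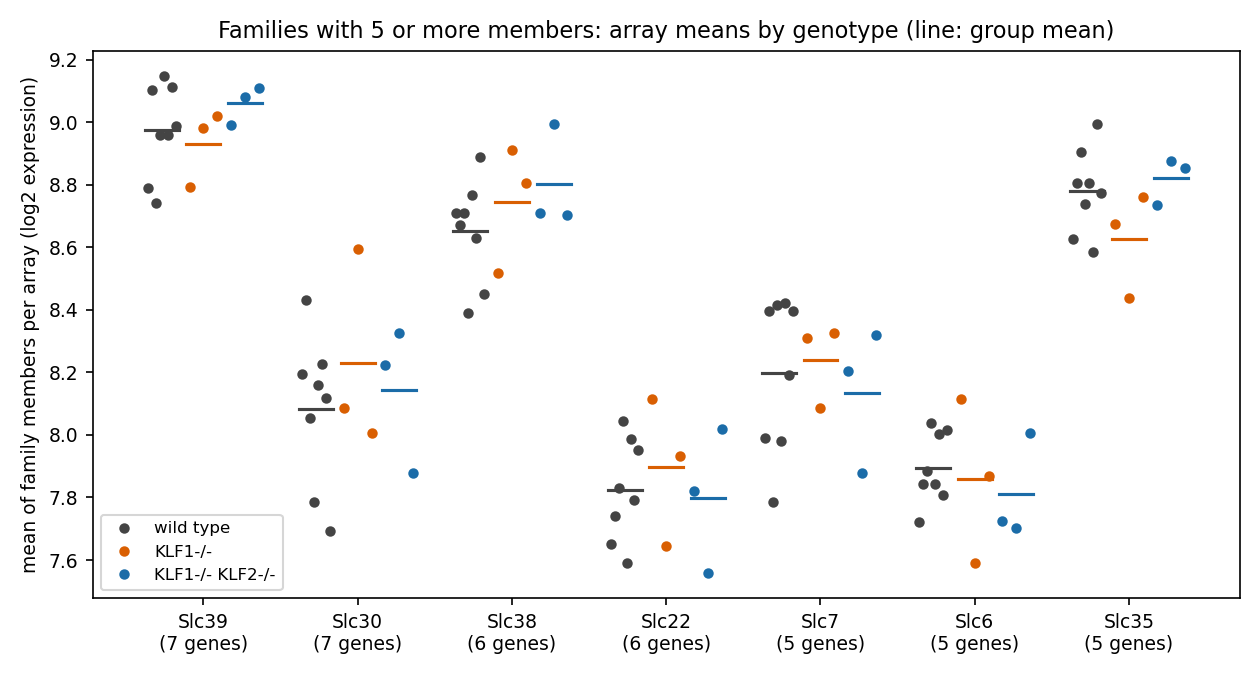
Mean log2 expression of the expressed genes of a family on each array (point) with the group mean (line), for the 7 families with 5 or more genes, by genotype. The ranges of the 3 genotypes overlap in every family, and families are not to be set against each other in level.

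Genes that work with these carriers were followed as lists. Of 19 partner and gradient genes 13 were measured and 0 were called in either mutant by limma. The kinase Stk39, which regulates Slc12 cotransporters, was the 1 with an unadjusted p under 0.05 in KLF1-/- (-0.25), and there was 0 in KLF1-/- KLF2-/-. Basigin (Bsg), the chaperone of Slc16a1, had -0.03 in KLF1-/-. Of 18 genes of the amino acid response, which runs through the factor ATF4 when amino acids are short, 0 were called, with 12 positive in KLF1-/- and 13 in KLF1-/- KLF2-/-, beside 52.1% of all genes in each. An unadjusted p under 0.05 was reached by 1 and 2 of them, beside 2.03% and 2.32% of all genes: Trib3 had 0.74 and 0.86, and the mitochondrial folate enzyme Mthfd2 had 0.83 in KLF1-/- KLF2-/-. Of 12 genes of amino acid sensing by mTORC1, 9 were measured, with 0 called and 0 at an unadjusted p under 0.05 in either mutant. The erythroid anion exchanger Slc4a1, outside the rule, had -0.92 (-1.57 to -0.27) and -0.88 (-1.53 to -0.24). It was not called by limma either (unadjusted p = 0.0085 and 0.011). Within the runs its differences were -0.77 and -1.04. All its KLF1-/- arrays lay below all wild-type arrays, while its KLF1-/- KLF2-/- arrays overlapped them. In KLF1-/- such a lack of overlap in either direction was found for 0.573% of all genes.

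The variation of some carriers between arrays followed other genes of the same arrays. Over the 14 arrays, 243 relations were computed (81 genes with the mean of the visceral endoderm markers, the mean of the erythroid markers and the interquartile range of the array), with permutation p-values adjusted over all of them. Slc2a2 followed the visceral endoderm markers (r = 0.941, rho = 0.930, adjusted permutation p = 0.000486 and 0.00121), also without the 2 farthest arrays (r = 0.909) and within the number runs (r = 0.910 and 0.925). Slc66a1, which exports cationic amino acids from lysosomes, had r = 0.937 and rho = 0.908, with 0.874 without the 2 farthest arrays and 0.924 and 0.963 within the runs. Slc2a3 (r = 0.878) and Slc30a7 (r = 0.848) also exceeded 0.8, and after removal of the 2 farthest arrays gave 0.775 and 0.702. These 4 of 81 genes compare with 1.95% of all genes past the same limit. After quantile normalization r was 0.893 for Slc2a2 and 0.740 for Slc2a3. The endoderm mean itself had r = 0.506 and rho = 0.402 with the interquartile range of the array. Slc2a2 and Slc2a3 had r = 0.476 and 0.607 with that range, whose part in these relations was not tested. The lowest endoderm means were those of wild-type samples 9, 11 and 12, so wild type held the whole range of Slc2a2 and the mutants lay within it.

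With the erythroid markers, Slc20a1 had r = 0.934 and rho = 0.943 (adjusted permutation p = 0.000486 and 0.00121), 0.918 without the 2 farthest arrays and 0.819 and 0.969 within the runs. Slc39a8 had r = 0.831 and rho = 0.807, and 0.676 without the 2 farthest arrays. These 2 of 81 compare with 0.614% of all genes. After quantile normalization r was 0.845 for Slc20a1 and 0.782 for Slc39a8. With the interquartile range of the array Slc20a1 had r = 0.687 and rho = 0.697 (adjusted permutation p = 0.0336 and 0.0433). Slc39a8 had r = 0.624 and rho = 0.776 with it (adjusted permutation p = 0.0615 and 0.0154). The erythroid mean itself had r = 0.501 and rho = 0.60 with that range, whose part in these relations was not tested. The erythroid list holds Klf1 and Slc4a1, and its array means were 11.31 to 12.46 in wild type, 11.20 to 11.53 in KLF1-/- and 10.98 to 11.85 in KLF1-/- KLF2-/-. Of the 9 markers, 1 had a positive difference in KLF1-/- (median -0.05) and 5 in KLF1-/- KLF2-/- (median 0.03), while Klf1 itself had -1.22 and -1.52, neither of them called by limma. The part of the erythroid share in the differences of Slc20a1 was not tested. With the interquartile range of the array, 3 genes had r of 0.8 or more and 12 had r of -0.8 or less, beside 9.76% and 13.1% of all genes. Among the 12 were Slc35a5, Slc7a4 and Slc8a1, whose KLF1-/- differences changed sign without sample 6, the array with the highest interquartile range (3.12). Slc38a4, which also changed sign without it, was not among them. The part of the range in these differences was not tested.

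**Figure D5:**
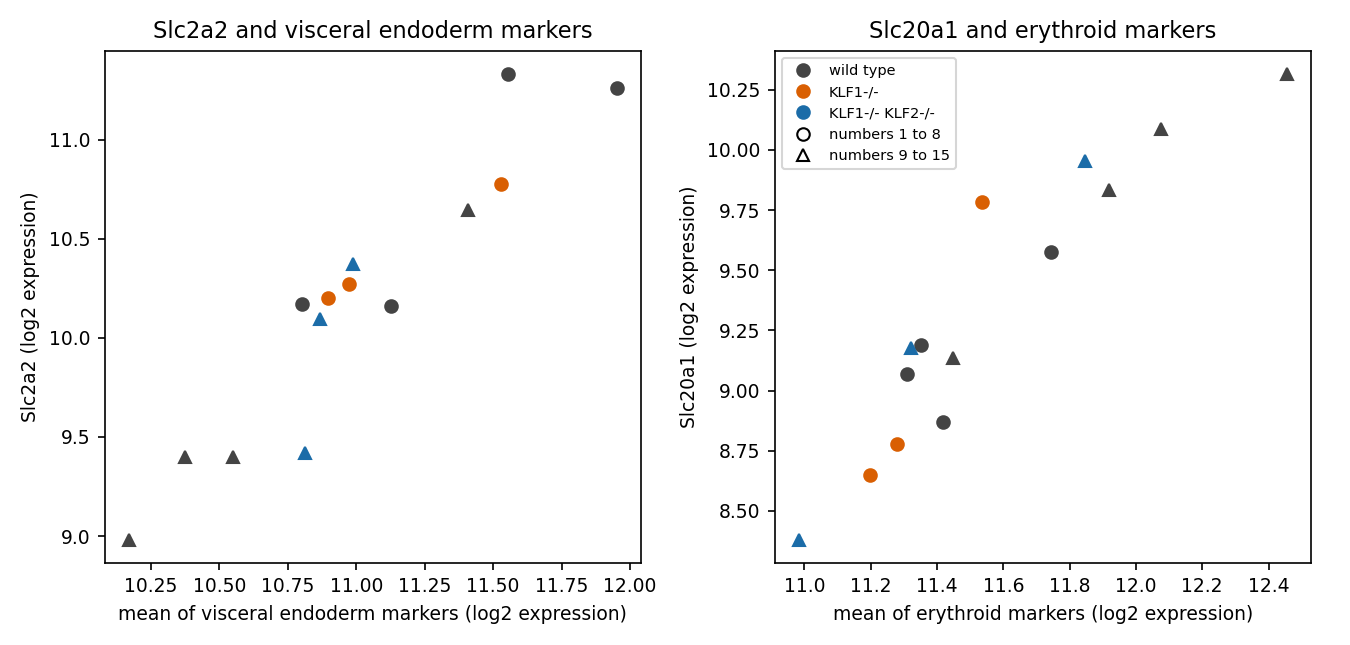
Log2 expression of Slc2a2 against the mean of the visceral endoderm markers (left) and of Slc20a1 against the mean of the erythroid markers (right) on the 14 arrays, coloured by genotype. Both genes climb with their marker mean (r = 0.941 and 0.934). On the left all 6 mutant arrays lie within the wild-type range, and on the right 3 mutant arrays lie below the lowest wild-type value of Slc20a1.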

How the data were processed

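The values are log2 expression per probe set on 14 arrays, as deposited. In the submitters' processing notes GCOS and RMA are named, with the packages affy and limma, none with a version. RMA corrects the background, normalizes arrays against each other and combines the probes of a set, and it compresses differences of weak signals. The authors' deposited log2 values ran from 3.29 to 14.7 and were used as they are. The interquartile range differed between arrays (2.31 to 3.12), so quantile normalization was an alternative. Depth does not apply to arrays, whose number limits the precision.

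Of 22690 probe sets, 64 were controls, 20380 carried 1 gene symbol in the platform annotation, 691 several and 1555 none. For each of 12393 genes the probe set with the highest mean over the 14 arrays was taken. Of the solute carriers, 42 had 1 probe set and 39 had more. The RefSeq gene table of GRCm38.p6 held the identifiers of all 81, with 0 symbols changed.

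Groups came from the sample titles. In R 4.3.3, limma 3.58.1 was used to fit 1 mean for each genotype over the 14 arrays (two-sided, lmFit then eBayes), with p-values adjusted by Benjamini-Hochberg over all genes, with genes called at an adjusted p under 0.05. Every p-value in the text that names no permutation is from this fit, and 95% intervals are its intervals. On simulated data for the KLF1-/- comparison with 12393 genes, the calls recovered 98% of 50 genes lowered by 2 units (change -2), 70% at -1, 80% at 1 and 96% at 2, and 6 calls were false. The simulated noise was independent and normal around 1 mean per gene, with 50 genes changed at each size. On the measured arrays limma called 5 genes in KLF1-/- and did not call Klf1 at -1.22. The simulated shares therefore check the fit and do not give its power on these arrays. Relations across arrays used 100000 permutations, two-sided, with a smallest possible p of 1e-05.

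Substrate groups follow the family, not the single gene. Genes are named by a rule: the 10 with the highest wild-type mean, the 6 per direction with the largest difference in each mutant and the 3 per direction between them, the brightest and the most different gene of each substrate group, those at the limit of 7, and the partner and response genes with the smallest p. Slc6a9, Slc7a5, Slc7a7, Slc19a1, Slc19a2, Slc20a2, Slc30a1, Slc30a9, Slc12a9, Slc43a3 and the dimmer probe sets were chosen after their values were seen, as were the relations with markers. The gene set, the lists and the rules were chosen with earlier results of these data known. Alternatives changed the number run (as a block, or as own-run controls), the probe sets, a filter on dim genes at a mean of 6, the normalization, the variance model, an RNA quality covariate (Gapdh 3′ minus 5′ signal), the groups in the fit, the level limit of the gene set and the arrays, each left out in turn. Python 3.11.15 served for tables and figures, with scipy 1.17.1, pandas 2.3.3, matplotlib 3.10.9 and numpy 2.4.6.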

Additional observations from a re-analysis of the deposited data

How the results depend on the processing

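The count of called solute carriers was 0 in each of the 4 comparisons under every alternative run, and the smallest adjusted p of any of the 81 genes in any of these limma fits was 0.314. The median difference of the 81 genes ran from -0.03 to 0.06 in KLF1-/- and from -0.05 to 0.02 in KLF1-/- KLF2-/-. It ran from -0.06 to 0.0088 between the mutants and from -0.0099 to 0.04 for their mean against wild type. The median value of the 81 genes had an SD of 0.08 over the wild-type arrays. That SD is a spread of single arrays and does not measure the spread of a median difference. The number of genes whose groups do not overlap was 1 in KLF1-/- and became 3 against the wild-type arrays of the same number run and 1 to 5 with single arrays left out, with 5 without KLF1-/- sample 6 and 2 without wild-type sample 9. In KLF1-/- KLF2-/- it was 1 and became 2 with the mean of all probe sets, 3 against own-run arrays, 0 among genes with a wild-type mean of at least 8, and 1 to 3 with single arrays left out, with 3 without sample 15 and 2 without wild-type sample 1 or 3 or sample 13.

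Of 2739 pairs of a named gene's difference and an alternative, 189 had the other sign, among them 10 of the 630 pairs whose difference the naming rule took for its size, and 0 pairs were called. Each of those 10 pairs belonged to a different difference. They are thus to be read against the differences taken, which were 6 per direction in each mutant and 3 per direction between the mutants. All 3 taken as lower in KLF1-/- KLF2-/- than in KLF1-/- (Slc16a1, Slc2a2 and Slc66a1) were among them, as was Slc35a5 of those taken as higher. The 10 were as follows. With the number run as a block Slc13a3 in KLF1-/- KLF2-/- was 0.20, and between the mutants Slc16a1 was 0.29, Slc2a2 0.67 and Slc66a1 0.23. With single arrays left out, Slc20a1 in KLF1-/- KLF2-/- ran from -0.73 to 0.057, Slc35a5 between the mutants from -0.25 to 1.06, Slc7a4 from -0.76 to 0.29 in KLF1-/- and from -0.90 to 0.21 in KLF1-/- KLF2-/-, and Slc8a1 from -0.65 to 0.10 and from -0.55 to 0.019. The cause of these shifts was not tested. No paired analysis was possible because the genotypes share no replicate number. The fit on the groups compared alone has no value for the mean of both mutants. With 3 arrays per mutant, differences below about the interval half-width of 0.42 are not resolved for the middle gene of the list, and dim probe sets respond less than bright ones.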
